A study of Homo sapiens with 18 samples.

Results

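Niraparib and olaparib, both inhibitors of the PARP enzymes that respond to DNA breaks, were compared directly in T47D cells labelled WT. T47D is an estrogen receptor-positive human breast cancer line. The comparison used 6 of the 18 RNA-seq libraries of the series, chosen by their labels: 3 from cells given niraparib and 3 from cells given olaparib, each at 10 μmol/L for 48 hours. The other libraries appear below where a value needs them: 3 from WT cells with the vehicle DMSO, and 3 each with niraparib, olaparib and DMSO from T47D cells labelled PARP1 KO. The WT and PARP1 KO cells also carry different line names in the labels (T47D AAV and T47D JL). How the knockout was made, and whether it is 1 clone, is not given in the sources used here, so the loss of PARP1 and any other difference between these lines cannot be told apart. The labels give the same medium, time and kit for every library and the same dose for both drugs. The labels do not say whether the 3 libraries of a group came from separate cultures. The paper's methods describe 3 dishes for each condition of its omics treatments, without stating that each dish gave 1 library. P values therefore measure the spread between these libraries, which may be technical. Permuting 6 libraries exactly cannot give a 2-sided P value under 0.1, and tests of single genes therefore come from the edgeR model fitted to all genes.

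Inhibitors of this class block the enzyme and hold it on damaged DNA, which slows replication and can delay entry into mitosis. Genes of mitosis are switched on late in each cycle, so their RNA in a bulk sample follows both the share of cells in that stage and the level per cell. These cannot be told apart here. Niraparib also binds lanosterol synthase (LSS), an enzyme of sterol synthesis, and carries a piperidine ring with a charged nitrogen that olaparib lacks. Sterol synthesis is set by the SREBP transcription factors, which are held inactive by INSIG proteins when sterols are plentiful.

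The total count of the 6 libraries was between 31810723 and 51595251, and niraparib replicate 2 was the deepest. It also stood farthest from its group: its log2 levels differed from those of niraparib replicates 1 and 3 with an SD of 0.229 and 0.235 over genes, against 0.145 between those 2 libraries. Olaparib libraries differed from each other with an SD of 0.147 to 0.159. The share of counts on mitochondrially encoded genes was 4.65% to 5.22% with niraparib and 4.86% to 5.57% with olaparib. Levels are given as CPM, counts scaled to the library total and by TMM factors, and differences as log2 of niraparib over olaparib. PARP1 itself was at 313, 291 and 313 CPM with niraparib and 337, 348 and 343 CPM with olaparib in WT, and between 22.9 and 27.6 CPM in the 9 PARP1 KO libraries.

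At a mean of 5 CPM or more, the called genes with the largest differences were of mixed kinds, led by TNFAIP8L1 and the mitotic gene KIF20A in the lower direction and by CREB5 and BEST1 in the higher, and the G2/M list held more calls in the lower direction than any other list named here. Of 22446 genes tested, 8.95% were called, that is, differed by more than 1.5-fold at an adjusted P value (edgeR) under 0.05. Calls in the higher direction made up 5.62% of the genes tested and calls in the lower direction 3.33%. A difference of more than 1 on the log2 scale was reached by 565 called genes that were higher with niraparib and by 225 that were lower. The 3 niraparib and the 3 olaparib libraries did not overlap for 1963 of the 2009 called genes, against 44.0% of all genes tested. The median difference over all genes tested was 0.02.

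KIF20A, a kinesin of cytokinesis (chromosome 5 from 138178719 to 138187723 of GRCh38), had 26.3, 21.6 and 23.7 CPM with niraparib and 116, 113 and 114 CPM with olaparib. The groups were far apart, and olaparib libraries were themselves below the DMSO libraries (179, 198 and 193 CPM). KIF20A was 4.81-fold lower with niraparib than with olaparib (log2 difference -2.27, standard error 0.06, adjusted P = 2.1e-15, edgeR). PLK1, the kinase that drives mitotic entry and spindle assembly, had 43.1, 33.9 and 41.1 CPM with niraparib and 138, 139 and 140 CPM with olaparib, a difference of -1.83 (standard error 0.07, adjusted P = 2.0e-12, edgeR). CCNB1, cyclin B1, had 87.2, 76.3 and 91.9 CPM against 234, 241 and 236 CPM. In all of these genes the 3 groups did not overlap, with DMSO highest, olaparib between and niraparib lowest. TNFAIP8L1 had the largest difference of the called genes that were lower with niraparib at a mean of 5 CPM or more, at 2.14, 1.12 and 2.32 CPM against 12.5, 13.8 and 13.4 CPM (log2 difference -2.88, standard error 0.18, adjusted P = 7.8e-08, edgeR). The others of the 10 most lowered genes were INSIG1, the bicarbonate transporter SLC4A8, the spindle protein gene PSRC1, YPEL1, FAM72B, LINC00957 and NEURL1B, at -1.54 to -1.92. FAM72B has near-identical copies, so its counts may be split among them.

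**Figure D1:**
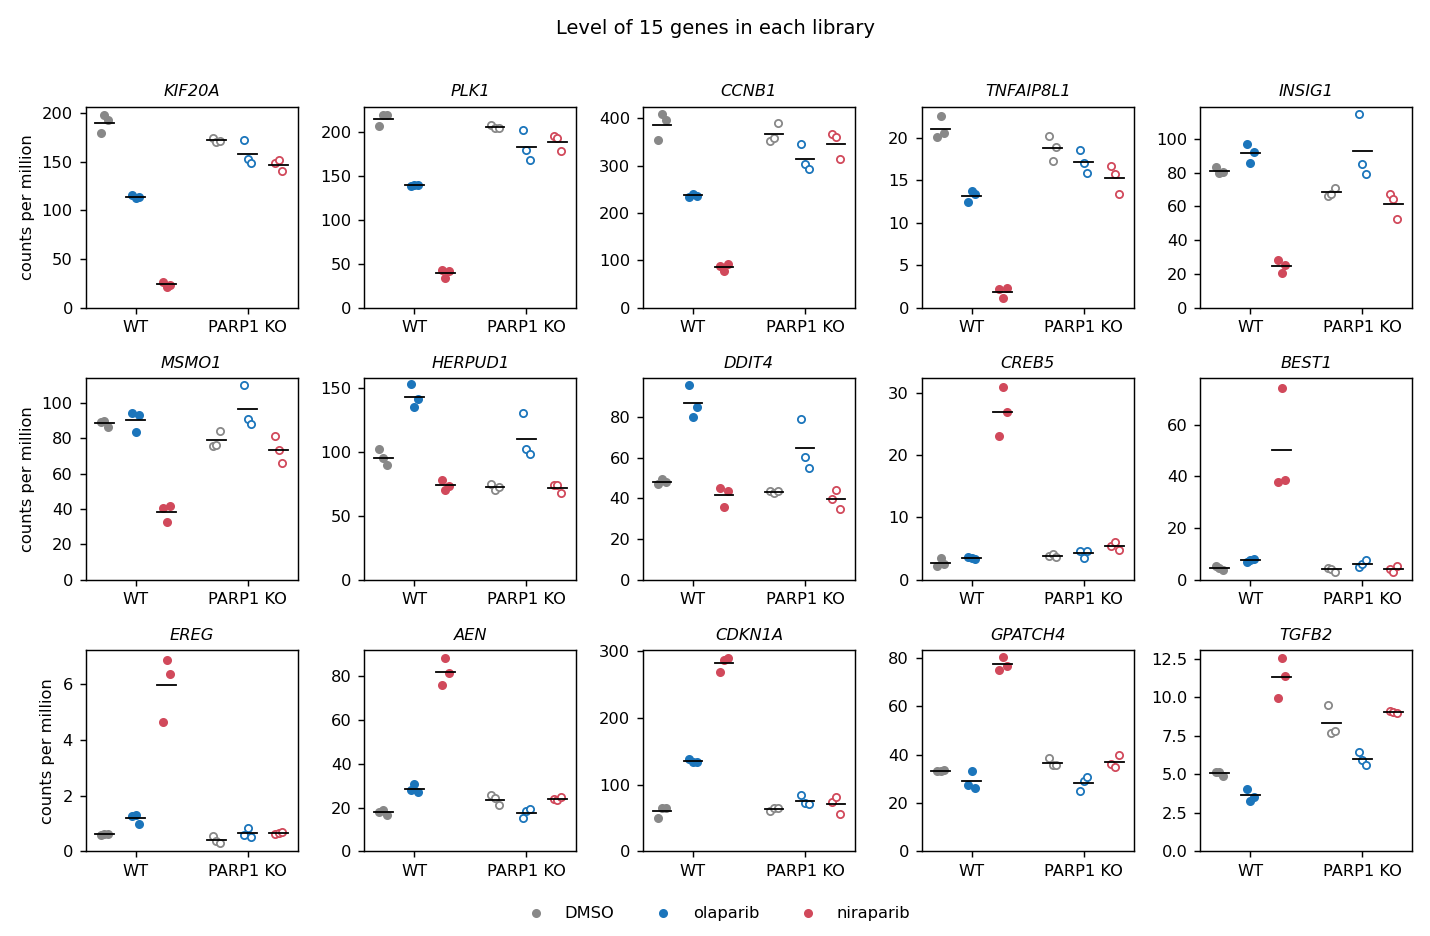
CPM (linear axes from 0) of 15 genes in each of the 18 libraries; points are libraries (DMSO grey, olaparib blue, niraparib red), filled for WT and open for PARP1 KO, and lines are means of 3. In WT the niraparib libraries of KIF20A (21.6 to 26.3 CPM) lie below all olaparib libraries and those of CREB5 (23.1 to 30.9 CPM) lie above them, while in PARP1 KO the drugs lie close together for both genes.

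The G2/M list held 52 genes, all tested. With niraparib, 30 were called lower than with olaparib and 0 higher. At an adjusted P value under 0.05 alone (edgeR), 50 of the 52 were lower, against 16.2% of all genes, and the remaining members were SMC2 (0.05) and SMC4 (-0.06). The median difference was -0.65. Besides KIF20A, PLK1 and CCNB1, UBE2C, which charges ubiquitin for the anaphase-promoting complex, was lower by 1.48 on the log2 scale. BUB1, a checkpoint kinase, was at -1.43, CCNA2, cyclin A2, at -1.42, and TOP2A, which untangles DNA before division, at -1.35. Summed over the list, the level was 5627 to 5876 CPM with niraparib, 9421 to 9576 CPM with olaparib and 10590 to 11360 CPM with DMSO. The median difference from DMSO was -0.90 with niraparib and -0.23 with olaparib, and these comparisons share their DMSO libraries.

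Promoters of mitotic genes often carry the cell cycle genes homology region, a short element bound by the complex that silences them outside G2 and M. The letters TTTGAA, on either strand, were looked for in the 250 bases before the start of each gene in RefSeq's table for GRCh38.p14, a search chosen after the values were seen. They were found in 25 of the 44 list members that the table holds (56.8%), in 14 of the 25 called ones (56%) and in 13.3% of its 35116 promoters. A list member counted if any of its promoters in the table held the letters. The 13.3% is over single promoters, so it is not a like measure. Shown are the 3 called members with the largest differences that hold the letters within the last 120 bases, as examples of the list. PLK1 (chr16:23678769-23678888, plus strand), CKS2 (chr9:89311075-89311194, plus strand) and CDC20 (chr1:43358861-43358980, plus strand) are written 5′ to 3′ up to the base before the start, with the match in capitals.
PLK1: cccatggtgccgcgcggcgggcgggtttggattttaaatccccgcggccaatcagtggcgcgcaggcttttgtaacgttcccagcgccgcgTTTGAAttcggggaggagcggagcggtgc
CKS2: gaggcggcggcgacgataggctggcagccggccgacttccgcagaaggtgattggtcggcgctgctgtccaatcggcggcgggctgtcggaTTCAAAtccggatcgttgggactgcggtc
CDC20: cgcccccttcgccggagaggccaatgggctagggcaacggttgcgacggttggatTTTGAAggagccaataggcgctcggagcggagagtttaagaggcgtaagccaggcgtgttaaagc
In PLK1 and in CKS2 the match begins 29 bases before the start, and in CDC20 65 bases before it. CKS2, which binds the mitotic kinase CDK1, was at -1.28 and CDC20, an activator of the anaphase-promoting complex, at -1.17 on the log2 scale. A match in these letters is a description and not evidence of binding.

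Some genes of the G1/S transition and of DNA replication were higher with niraparib. Of 54 tested, 5 were called higher with niraparib and 0 lower, against 5.62% and 3.33% of all genes, with a median of 0.21. On the adjusted P value alone (edgeR), 28 were higher and 11 lower, against 16.1% and 16.2% of all genes. POLA1, the catalytic subunit of the primase-polymerase complex, had 94.4, 99.3 and 98.3 CPM with niraparib and 56.9, 61.6 and 55.4 CPM with olaparib, a difference of 0.74 (standard error 0.05, adjusted P = 4.6e-10, edgeR). CCNE1, cyclin E1, was at 0.83 and the helicase subunit MCM5 at 0.68. GINS4 and CLSPN were near the 1.5-fold limit at 0.59, and CLSPN passed it neither without olaparib replicate 3 (0.51) nor without niraparib replicate 2 (0.54). Of the 38 replication-dependent histone genes tested, whose RNA is made in S phase, 2 were called lower and 0 higher, with a median of -0.25. These genes have near-identical copies and lack the usual poly(A) tail, while the libraries were made from polyA RNA. H2BC7 had 1.04, 1.23 and 1.38 CPM with niraparib, 2.25, 2.3 and 1.94 CPM with olaparib and 4.85 to 6 CPM with DMSO. The other, H2BC4 (-0.60), fell below the fold limit without olaparib replicates 1 (-0.54) or 2 (-0.55), or niraparib replicates 1 (-0.58) or 2 (-0.47).

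Among 32 genes of homologous recombination and the Fanconi anemia pathway, 2 were called in each direction, which is near the share of all genes (5.62% higher and 3.33% lower). BRCA2, a central factor of recombination repair, had 51.7, 61.3 and 50.6 CPM with niraparib against 30.2, 31.1 and 32.6 CPM with olaparib (log2 difference 0.80, standard error 0.07, adjusted P = 9.0e-09, edgeR). The helicase gene BRIP1 was at 0.61, and at 0.55 without olaparib replicate 3, below the fold limit. FANCE, a subunit of the Fanconi core complex, was lower at -0.67. RAD54L was lower at -0.62, and at -0.53 without niraparib replicate 3, again below the limit.

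**Figure D2:**
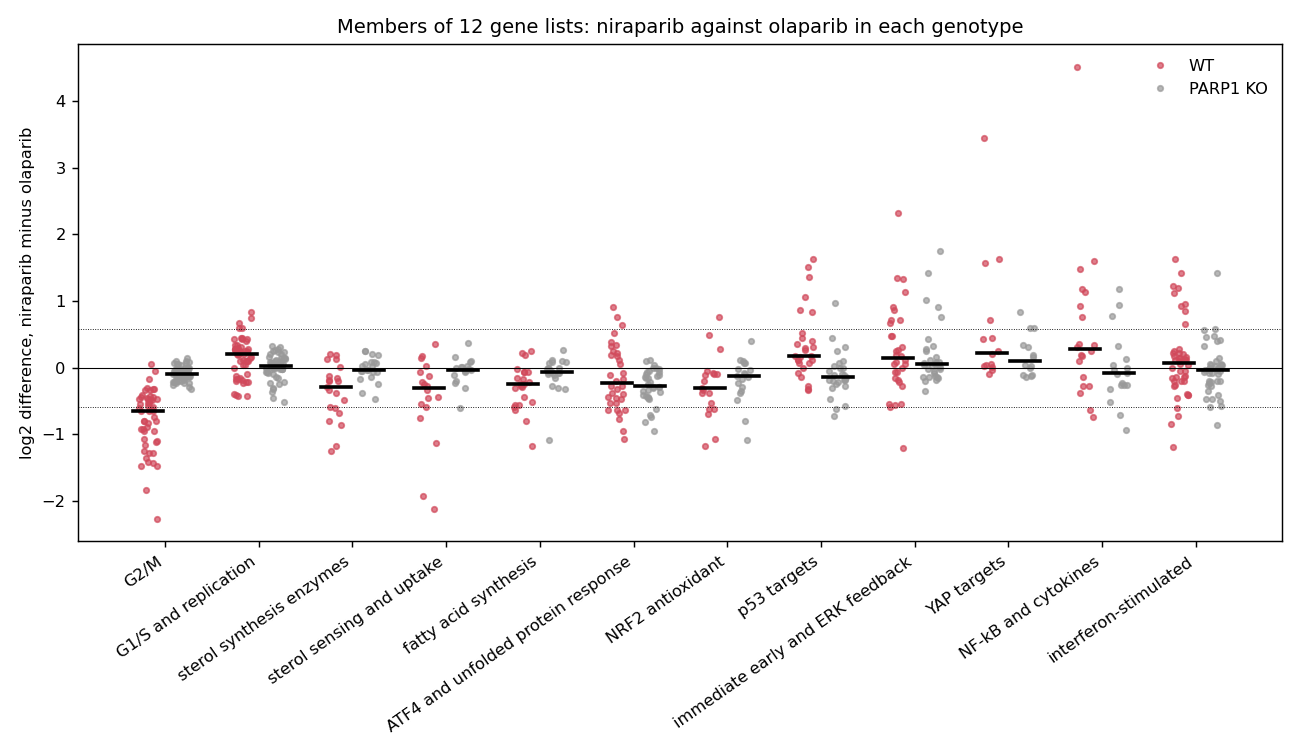
Log2 difference of niraparib over olaparib for each tested member of 12 gene lists (points, with horizontal jitter only to separate them), in WT (red) and in PARP1 KO (grey); black bars are medians and dotted lines mark 1.5-fold. The WT median of the G2/M list is -0.65 and its PARP1 KO median is -0.09.

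At a mean of 5 CPM or more, the called genes with the largest differences in the higher direction were of several kinds. Some genes of lower level, such as ANKRD1 and KRT17 described below, differed more. CREB5, a basic leucine zipper transcription factor (chromosome 7 from 28299321 to 28825894), had 23.1, 30.9 and 27 CPM with niraparib and 3.63, 3.47 and 3.27 CPM with olaparib, where it overlapped DMSO (2.17 to 3.53 CPM). It was 7.79-fold higher with niraparib (log2 difference 2.96, standard error 0.14, adjusted P = 9.3e-11, edgeR). BEST1, a chloride channel gene, had 37.8, 74.5 and 38.7 CPM against 6.82, 7.53 and 7.97 CPM, with niraparib replicate 2 far above the others of its group (log2 difference 2.76, standard error 0.33, adjusted P = 7.7e-04, edgeR). CFAP251, a ciliary gene, was at 2.04, the growth factor gene TGFB2 and the zinc finger gene ZNF583 at 1.63, and DUSP10, a phosphatase of the stress kinases JNK and p38, was at 23.3 to 24.1 CPM against 8.01 to 8.86 CPM. RNF223, PINX1 and GPATCH4 followed at 1.41 to 1.45. GPATCH4 was at 75.1, 80.4 and 76.7 CPM with niraparib, while olaparib (27.6, 33.2 and 26.1 CPM) did not exceed the DMSO range (33.1 to 33.6 CPM). Exon bases shared with another gene make up 22.7% of TGFB2 and 17.3% of PINX1, and their counts are uncertain to that extent.

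T47D carries a mutant p53, and of 27 p53 target genes tested 6 were called higher with niraparib and 0 lower, against 5.62% and 3.33% of all genes, with a median of 0.18. AEN, a nuclease, had 76, 88.1 and 81.3 CPM with niraparib and 28.2, 30.6 and 27.2 CPM with olaparib (log2 difference 1.51, standard error 0.07, adjusted P = 4.3e-13, edgeR). CDKN1A, the cell cycle inhibitor p21, had 270, 287 and 289 CPM against 138, 134 and 134 CPM, and 50.6, 64.7 and 64.5 CPM with DMSO, so that each drug's libraries stood apart. Its difference between the drugs was 1.05 (standard error 0.07, adjusted P = 2.1e-08, edgeR). The others were the glycolysis regulator TIGAR (1.64, at 2.02 CPM or less in every drug library), the kinase gene PLK3 (1.37), TP53I3 (0.86) and the ribonucleotide reductase subunit RRM2B (0.83). Of the exon bases of TIGAR, 18.1% are shared with another gene.

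Of 32 immediate early and ERK feedback genes, 8 were called higher with niraparib and 1 lower, against 5.62% and 3.33% of all genes. Among the former were EREG, HBEGF and AREG, which encode ligands of the epidermal growth factor receptor family. EREG had 4.64, 6.88 and 6.37 CPM with niraparib and 1.27, 1.3 and 0.984 CPM with olaparib, without overlap (log2 difference 2.32, standard error 0.19, adjusted P = 4.8e-09, edgeR). HBEGF was at 1.35, and AREG, at 184, 211 and 203 CPM against 116, 125 and 122 CPM, was at 0.72. AREG is also on the list of estrogen receptor targets. EGR1, an immediate early transcription factor, was the gene called lower. It had 9.58, 10.2 and 10.3 CPM with niraparib and 26.5, 22.6 and 20.4 CPM with olaparib (log2 difference -1.21, standard error 0.14, adjusted P = 3.0e-05, edgeR), and the niraparib libraries lay within the DMSO range of 7.75 to 12 CPM. FOSL1, at 1.33, passed the test neither without olaparib replicate 3 (1.16, adjusted P = 0.055, edgeR) nor without niraparib replicate 2 (1.04, adjusted P = 0.076).

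Of 14 targets of the coactivator YAP, 4 were called higher with niraparib and 0 lower, where 5.62% and 3.33% of all genes were. ANKRD1, a widely used YAP target, had 3.45, 4.92 and 4.15 CPM with niraparib and 0.441, 0.433 and 0.254 CPM with olaparib, below the DMSO libraries at 0.62 to 0.673 CPM (log2 difference 3.44, standard error 0.25, adjusted P = 6.3e-10, edgeR). The receptor kinase gene AXL was at 1.57 and the coagulation factor receptor F3 at 0.72. Among 20 NF-kB and cytokine genes, 4 were called higher and 2 lower, and 2 of the higher calls were lost without 1 library, as given below. RELB, an NF-kB subunit, had 17.2, 17.3 and 15.7 CPM with niraparib and 7.88, 7.2 and 7.75 CPM with olaparib, and the cytokine LIF was at 1.60. The inhibitor NFKBIA (-0.74) and the adhesion gene ICAM1 (-0.63) were lower. IRAK2 (0.75) and the chemokine CCL2 (1.48) were called at low levels, and neither call held without olaparib replicate 2 (0.55 with adjusted P = 0.083 and 1.10 with adjusted P = 0.11, edgeR). CCL2 also lost it without niraparib replicate 2 (1.15, adjusted P = 0.15, edgeR). Of 14 Wnt pathway genes 3 were called higher, namely DKK1, NKD2 and TCF7, all under 3 CPM, and BMP4 was lower at -0.82. The shares of all genes given for the YAP targets apply to these lists too.

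A part of the sterol genes was called lower with niraparib than with olaparib. Of 21 synthesis enzymes, 7 were called lower and 0 higher, against 3.33% and 5.62% of all genes, and the median was -0.29. On the adjusted P value alone (edgeR), 13 were lower and 2 higher, against 16.2% and 16.1%. MSMO1, a demethylating oxidase late in the pathway, had 40.8, 32.8 and 41.4 CPM with niraparib and 94.1, 83.7 and 93.3 CPM with olaparib, which overlapped DMSO at 86.2 to 90.1 CPM (log2 difference -1.25, standard error 0.08, adjusted P = 5.3e-09, edgeR). HMGCS1 was at -0.86, SQLE at -0.81, IDI1 at -0.68 and MVD at -0.60. MVD was at -0.56 without niraparib replicate 2 and without olaparib replicate 1, below the fold limit. FDFT1 stayed below it at -0.48. LSS, which niraparib binds, was at 112, 120 and 116 CPM with niraparib and 109, 103 and 107 CPM with olaparib, a difference of 0.13 (95% interval 0.01 to 0.24, adjusted P = 0.096, edgeR). CYP51A1, the next enzyme after LSS, was at -0.18 (95% interval -0.46 to 0.09), and 80.6% of its exon bases lie in another gene as well.

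INSIG1, which retains SREBP in the endoplasmic reticulum and is itself an SREBP target, had 28.1, 20.2 and 25.1 CPM with niraparib and 97.2, 85.9 and 92.2 CPM with olaparib, the largest difference of the called sterol genes (log2 difference -1.92, standard error 0.10, adjusted P = 6.7e-08, edgeR). Its olaparib libraries were above the DMSO libraries (79.6 to 83.3 CPM). VLDLR, a lipoprotein receptor, had 6.69, 4.92 and 6.05 CPM with niraparib, 9.93, 9.07 and 10.6 CPM with olaparib and 5.6 to 6.4 CPM with DMSO, so here the olaparib libraries were the ones apart from DMSO. TMEM97 was called lower at the fold limit (-0.59), and not without niraparib replicate 2 (-0.53), olaparib replicate 1 (-0.58) or olaparib replicate 2 (-0.58). RLE factors, DESeq2, no filter and both other sets of libraries also put it below the limit (-0.57 to -0.58). In all, 4 of 18 sensing and uptake genes were called lower and 0 higher, where 3.33% of all genes were called lower. The median difference from DMSO of these 18 genes was -0.19 with niraparib and 0.17 with olaparib. In the fatty acid list, 13 of 23 were lower and 1 higher on the adjusted P value alone (edgeR), against 16.2% and 16.1% of all genes, with a median of -0.25. Of these, 2 were called lower and 0 higher, the desaturase SCD (-0.81) and the carboxylase ACACA, which was at -0.59 and lost the call without olaparib replicate 1 (-0.57), niraparib replicate 2 (-0.57) or niraparib replicate 3 (-0.57). FASN was at -0.51.

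Of 14 LXR and efflux genes, 1 was called, near the 8.95% of all genes, the cholesterol exporter ABCA1. Its libraries overlapped (3.09, 4.29 and 3.65 CPM with niraparib, 1.71, 3.12 and 2.03 CPM with olaparib), and the call was lost without olaparib replicate 1 (0.51), olaparib replicate 3 (0.61), niraparib replicate 2 (0.56) or niraparib replicate 3 (0.70, adjusted P = 0.076, edgeR). MYLIP, a ubiquitin ligase, was at 0.35 and ABCG4 at 0.29 (95% interval -0.16 to 0.74). The SREBP half-site CACCCCAC was found, on either strand in the 250 bases before the start, in 0 of the 7 called sterol genes that the promoter table holds, in 1 of the 32 sterol genes it holds and in 2.43% of all promoters, so no promoter is printed for them. Genes were again counted over any of their promoters, and the 2.43% over single promoters.

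**Figure D3:**
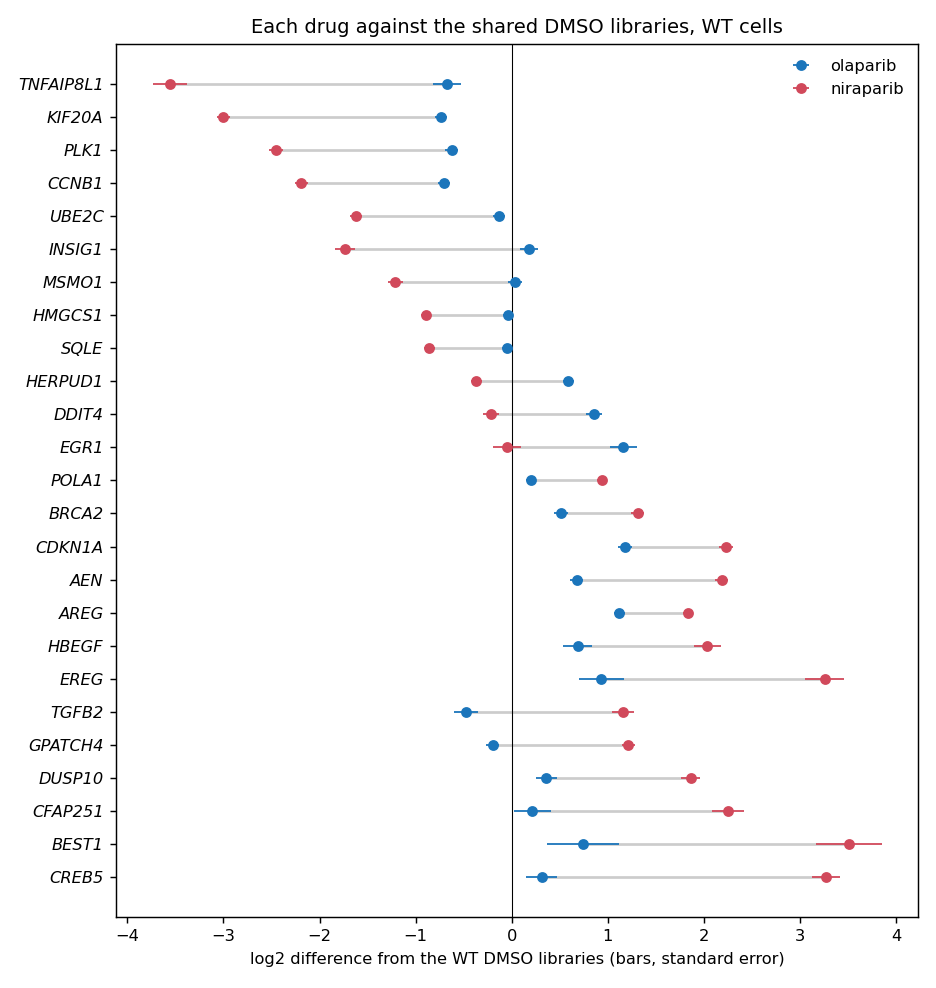
Log2 difference from the 3 WT DMSO libraries for 25 genes with olaparib (blue) and niraparib (red), bars showing the standard error; both drugs share the DMSO libraries. TNFAIP8L1 lies at -0.68 with olaparib and -3.56 with niraparib, while for DDIT4 (0.86 and -0.22) and EGR1 (1.16 and -0.05) olaparib lies farther from DMSO.

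For DDIT4 and HERPUD1 the olaparib libraries lay above DMSO and the niraparib libraries below it. In the list of ATF4 targets and the unfolded protein response, 7 of 34 genes were called lower with niraparib and 3 higher, against 3.33% and 5.62% of all genes. DDIT4, an inhibitor of mTOR complex 1, had 45, 35.9 and 43.4 CPM with niraparib, 95.9, 79.9 and 85 CPM with olaparib and 47 to 49.4 CPM with DMSO, and HERPUD1, of endoplasmic reticulum degradation, had 77.9, 70.3 and 73.4 CPM, 153, 135 and 141 CPM, and 89.4 to 102 CPM. Their differences between the drugs were -1.08 (adjusted P = 1.1e-07, edgeR) and -0.96 (adjusted P = 8.2e-11). The chaperone genes HSPA5 (-0.77), MANF (-0.67) and HSP90B1 (-0.64) were lower with niraparib than with either olaparib or DMSO, by -0.56, -0.54 and -0.62 against DMSO. The genes called higher with niraparib were ATF3 (0.90), the cystine transporter SLC7A11 (0.76) and its partner SLC3A2 (0.65). Of 19 NRF2 targets, which protect from oxidants, 3 were called lower and 1 higher, beside the same shares of all genes, with a median of -0.30. NQO1 and the ferritin chain FTL were at -0.62, and without niraparib replicate 2 at -0.54 and -0.56, below the fold limit. The third was SRXN1, of whose exon bases 84.9% overlap another gene, and this call (-0.70) did not hold without olaparib replicate 2 (adjusted P = 0.077), olaparib replicate 3 (0.090) or niraparib replicate 1 (0.054, edgeR).

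The other lists are given against 5.62% of all genes called higher and 3.33% called lower. Interferon-stimulated genes were split, with 7 of 44 called higher and 3 lower. IFI27 was at 1.42 with 2.63 CPM or less in every drug library, and IFIT1 was at -1.20 with 3.01 to 4.25 CPM against 7.5 to 9.46 CPM. Estrogen receptor targets were split 4 and 4 of 26, with AREG higher and PDZK1 (-0.69) lower. IGFBP4 (-0.64) fell below 1.5-fold without niraparib replicate 2 (-0.57). Among 28 hypoxia and glycolysis genes the aldolase ALDOC was lower (-0.85) and EGLN3 higher (1.15, and 0.93 with adjusted P = 0.058 without olaparib replicate 3, edgeR). HSPH1, a heat shock protein, was the only chaperone of 14 called higher (0.81), and HSPA1B, which has a near-identical copy, was called lower at the limit (-0.59) and fell below it without olaparib replicate 1 (-0.46) or niraparib replicate 2 (-0.56). It also fell below the limit under RLE factors, DESeq2, both other filters, the replicate block and both other sets of libraries (-0.57 to -0.58). AHR, the aryl hydrocarbon receptor, had 53.4, 59.4 and 64.6 CPM with niraparib and 28.1, 28.1 and 27.9 CPM with olaparib. Exon bases shared with another gene make up 29.5% of AHR, and its counts are uncertain to that extent. AHR was the only one of 8 genes of its own pathway list called higher, and NQO1 was the only one called lower. Of 39 lysosome and autophagy genes, 0 were called, although 19 were lower and 5 higher on the adjusted P value alone (edgeR), against 16.2% and 16.1% of all genes. Of 252 genes spanning 500 kb or more, 15 were called higher and 11 lower, shares near those of all genes. CREB5 led them, and the next by size, PLXNA4, MEF2C-AS1 and a gene with no symbol, had 17 counts or fewer in every drug library and lost the call when any 1 olaparib library was left out. Of the 28 mitochondrially encoded genes tested, 0 were called by edgeR and 2 were lower on the adjusted P value alone.

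Of 15 genes for proteins that the drugs bind, 7 were lower and 1 higher on the adjusted P value alone (edgeR), against 16.2% and 16.1% of all genes. Only 1 was called, a share near the 8.95% of all genes, and this was PARP11 (-0.67, and -0.54 with adjusted P = 0.077 without olaparib replicate 1, edgeR), which was also the only one of 22 PARP family and NAD genes called. PARP1 was at -0.17 (95% interval -0.27 to -0.07) and PARP2 at -0.23. The tankyrases TNKS (-0.04, 95% interval -0.15 to 0.07) and TNKS2 (-0.03, -0.12 to 0.07) overlapped between the drugs, and so did PARP4, ECH1 and NMRAL1. The deoxycytidine kinase DCK was at -0.34, the ferrochelatase FECH and the kinase CDK16 at -0.23, JAK1 at -0.21, DYRK1A at 0.11 and PARP3 at 0.29. Of the drug transporter and metabolism genes, 4 of 8 could be tested and 0 were called (edgeR), with 2 higher on the adjusted P value alone. ABCB1, the exporter P-glycoprotein, had at most 1 count in any drug library.

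All 14 luminal markers were expressed, with a summed level of 11270 to 12550 CPM with niraparib, 12790 to 13270 CPM with olaparib and 15980 to 16700 CPM with DMSO. Of these, 1 was called lower and 0 higher, against 3.33% and 5.62% of all genes. This was ERBB3 (450, 389 and 407 CPM against 736, 694 and 718 CPM, log2 difference -0.79), and ESR1 was at -0.11. In the luminal list 12 of the 14 were below 0. On the adjusted P value alone (edgeR), 6 were lower and 0 higher, against 16.2% and 16.1% of all genes. Of the basal markers, KRT5 and KRT14 had at most 2 counts in any drug library, while 2 of the 4 tested were called higher, where 5.62% of all genes were. KRT17 had 2.08, 2.94 and 2.62 CPM with niraparib and 0.337, 0.379 and 0.0635 CPM with olaparib (log2 difference 3.23, standard error 0.37, adjusted P = 6.9e-07, edgeR), and TP63 was at 0.72. The basal list summed to 61.1 to 61.9 CPM with niraparib and 57.6 to 60.1 CPM with olaparib. The fibroblast list was at 114 to 154 CPM and 96.3 to 108 CPM, with COL1A1 as its bulk. Only LUM, at 0.79 CPM or less, was called higher of its 5 genes tested. Leukocyte markers summed to at most 3.09 CPM and endothelial markers to at most 0.288 CPM in the drug libraries, with 0 called of 3 and of 2 tested (edgeR), and 0 on the adjusted P value alone.

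In PARP1 KO cells the same drugs at the same dose differed far less. Of 22037 genes tested there, 1.07% were called, 0.622% higher and 0.449% lower with niraparib, and the count fell from 236 to 144 without niraparib replicate 2 of that genotype. No member of the G2/M list was called, and 5 of the 52 were lower on the adjusted P value alone (edgeR), against 5.73% of all genes there. KIF20A had a mean of 147 CPM with niraparib and 158 CPM with olaparib there. Of the 2009 genes called in WT, 1968 were tested in PARP1 KO. Of these, 1621 (82.4%) had the same sign there. For those higher the median was 0.92 in WT and 0.26 in PARP1 KO, and for those lower -0.81 and -0.24. Selection by the WT difference by itself makes the WT medians larger, so these medians cannot measure how the sizes compare. Of the 236 genes called in PARP1 KO, 217 had the same sign in WT. No library is shared between these comparisons. Both genotypes called 119 genes, each with the same sign in both, or 5.92% of the WT calls and 50.4% of the PARP1 KO calls.

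The genes called in both genotypes included DDIT4 (-0.71 in PARP1 KO), HERPUD1 (-0.62), TGFB2 (0.59), DKK1 (1.80), EGLN3 (0.81) and ICAM1 (-0.94). For DDIT4 and HERPUD1 all olaparib libraries were above all DMSO libraries in PARP1 KO too, with HERPUD1 at means of 71.7 CPM with niraparib, 110 CPM with olaparib and 72.3 CPM with DMSO. DDIT3 (-0.95) and TRIB3 (-0.74) were called lower with niraparib in PARP1 KO, while in WT they were at -0.10 and 0.18. Of the 34 ATF4 and unfolded protein genes, 30 were below 0 in PARP1 KO and 21 in WT. Over all genes tested, 10894 of 22037 and 10795 of 22446 were below 0. In PARP1 KO 4 of the 34 were called lower and 0 higher, where 0.449% and 0.622% of all genes were. By size, the PARP1 KO calls at 1 CPM or more were led by the matrix gene FBLN2 (-1.70, and -2.20 in WT), TPSP2, RPS19P7, N4BP2L1 and CLIP3 in the lower direction and by LINC02701, LINC00235, the retinoic acid-degrading enzyme CYP26B1 (1.07, and 1.02 in WT), TMEM167B-DT and SDCBP2-AS1 in the higher. TPSP2, RPS19P7 and LINC02701 were not called in WT, and the WT call of CLIP3 was lost without olaparib replicate 1 (adjusted P = 0.074, edgeR) or 3 (0.073) or niraparib replicate 1 (0.076) or 3 (0.073). In PARP1 KO the sterol enzymes gave 0 calls (edgeR), with 3 lower and 3 higher of 21 on the adjusted P value alone, against 5.73% and 4.27% of all genes. MSMO1 was at -0.39, with means of 73.6 CPM with niraparib, 96.4 CPM with olaparib and 78.9 CPM with DMSO.

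**Figure D4:**
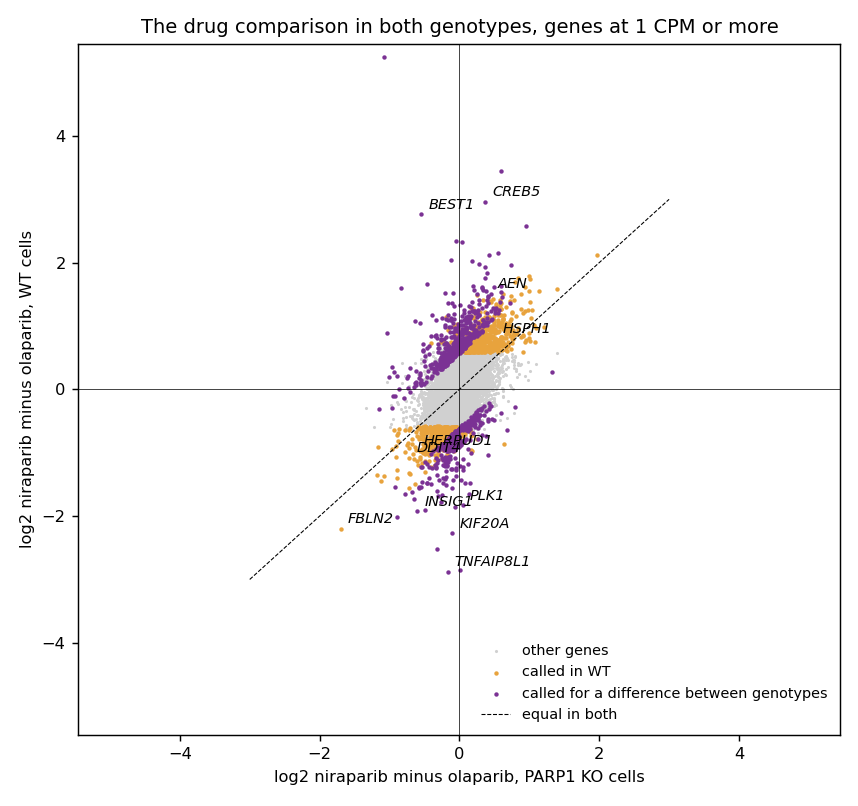
Log2 difference of niraparib over olaparib in WT (vertical axis) against PARP1 KO (horizontal axis) for 13552 genes with a mean of 1 CPM or more in the 12 drug libraries; orange genes were called in WT, purple genes were called for a difference between genotypes, and the dashed line marks equal values. KIF20A lies at -2.27 in WT and -0.10 in PARP1 KO, and FBLN2 at -2.20 and -1.70.

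The difference between the genotypes was tested directly as an interaction over all 18 libraries. Of 24675 genes, 3.24% were called, 2.05% with a more positive and 1.19% with a more negative difference in WT (edgeR). Of the genes called between the drugs in WT, 573 (28.5%) were also called here. Both tests use the same WT libraries, so this overlap is no independent support. In the G2/M list 26 of 52 were called more negative in WT and 0 more positive, and the sterol enzymes gave 4 and 0 of 21, MSMO1, HMGCS1 and SQLE among them. The largest interactions at 5 CPM or more were PIF1, a DNA helicase (-2.85), TNFAIP8L1 (-2.70), KIF20A (-2.16), PLK1 (-1.87) and CCNB1 (-1.62) in the lower direction, and BEST1 (3.31), CREB5 (2.60), the synaptic gene PCLO (1.58), the snoRNA host gene SNHG12 (1.48) and ZNF583 (1.44) in the higher. PIF1 had 0.922, 1.68 and 0.888 CPM with niraparib and 8.89, 7.99 and 9.46 CPM with olaparib in WT, against means of 15.8 and 16 CPM in PARP1 KO. For the unfolded protein genes DDIT4 (-0.35, adjusted P = 0.26) and HERPUD1 (-0.33, adjusted P = 0.068, edgeR) the interaction missed the threshold, which does not show that the genotypes responded alike.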

How the data were processed

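RNA-seq counts were analysed from 18 T47D libraries, 3 in each of 6 groups formed from the labels. The authors aligned the reads with STAR to GRCh38 and deposited whole-number counts per gene made with featureCounts 2.0.0, which the file headers and the methods describe as counting primary alignments on exons of Ensembl release 96 by strand. Picard MarkDuplicates was used. The deposited files are named as deduplicated, and the methods do not state that duplicates were removed. Names were matched for 58472 of 58884 gene IDs.

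The drug comparison was fitted with edgeR 4.0.16 (quasi-likelihood test, TMM factors, R 4.3.3, limma 3.58.1) on the 9 libraries of a genotype, and the difference between genotypes as an interaction over all 18. Genes with 10 or fewer counts in all were left out. P values were adjusted by Benjamini-Hochberg over all genes tested, and a call needed an adjusted P value under 0.05 and more than 1.5-fold. The biological coefficient of variation was 7.04% in WT, 7.42% in PARP1 KO and 7.24% over both. Standard errors come from the F statistic, and intervals are at 95%. The code was tested on simulated data. Alternatives were RLE factors, other filters, DESeq2 1.42.0, a replicate block, other sets of libraries and other thresholds.

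Named genes were the up to 10 largest calls in each direction in WT at a mean of 5 CPM without overlapping libraries, up to 4 calls per list, the transcripts that the study names, the proteins bound by either drug, the 5 largest PARP1 KO calls in each direction at 1 CPM, and the 5 largest interactions in each direction at 5 CPM. Other list members are given as examples. The members and lists were chosen with earlier results of these data known. Results for some genes are not reported here.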

Additional observations from a re-analysis of the deposited data

Results flagged for a closer look

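The difference between niraparib and olaparib depended on the genotype for 800 genes by the interaction test (edgeR), which is why the following values, each the log2 difference in WT minus that in PARP1 KO, are given. Many of the genes named here were picked for a large difference in WT, and the interaction uses the same WT libraries. Their values therefore lean to the WT sign by selection and are descriptions. Among the genes lowest with niraparib relative to olaparib in WT they were -2.70 for TNFAIP8L1, -2.16 for KIF20A, -1.87 for PLK1, -1.41 for PSRC1, -1.36 for SLC4A8, -1.31 for INSIG1, -1.27 for FAM72B, -0.98 for LINC00957 and NEURL1B, and -0.86 for YPEL1. CCNB1 was at -1.62 and PIF1 at -2.85.

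Among the genes highest with niraparib relative to olaparib in WT they were 3.31 for BEST1, 2.60 for CREB5, 2.16 for CFAP251, 1.44 for ZNF583, 1.26 for DUSP10, 1.07 for AEN, 1.05 for TGFB2 and RNF223, 1.03 for GPATCH4 and 0.85 for PINX1. PCLO was at 1.58 and SNHG12 at 1.48.

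Among lipid genes, the values were -0.85 for MSMO1, -0.72 for SCD, -0.66 for SQLE and -0.61 for HMGCS1. The genotypes also carry different line names, and these cannot be told apart.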

How the results depend on the processing

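The WT comparison called 2009 genes, and 1695 to 2126 when 1 library was left out. On the adjusted P value alone it called 7232, and with a log2 difference above 1.5 it called 367. The PARP1 KO comparison called 236, and 2203, 24 and 114 on the adjusted P value alone, above 1.5 on the log2 scale and at an adjusted P value under 0.01. It called 144 without PARP1 KO niraparib replicate 2 and 281 without olaparib replicate 3. The interaction called 800, 3335 on the adjusted P value alone, 90 above 1.5 on the log2 scale, and 628 to 898 with 1 library left out. Under RLE factors, either other filter, DESeq2 and other sets of libraries these 3 counts stayed within 1.5 times. Replicate numbers were not used to pair the samples in the main fit. Deviations of same-numbered niraparib and olaparib libraries correlated at -0.04, -0.21 and -0.13 in WT and at 0.38, -0.15 and 0.58 in PARP1 KO. Pairs with unlike numbers ran from -0.10 to 0.21 in WT and from -0.61 to 0.46 in PARP1 KO. Whether the numbers mark a shared effect was not tested. With a replicate block the counts were 1859, 206 and 766. Of 128 named genes, 106 were called in WT and 24 of these lost the call in 1 or more alternatives, and 0 reversed. Of 495 list medians recomputed, 66 moved by more than 1 SD of the medians of the single niraparib libraries. Genes with few counts are limited by depth.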

Other observations

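Some gene groups were picked after the values were seen, so their counts are descriptions, to be read beside the 5.62% of all genes called higher and 3.33% called lower in WT. Of 36 genes of ribosome biogenesis, 13 were called higher with niraparib than with olaparib in WT and 0 lower, with a median of 0.45, and in PARP1 KO 0 were called (edgeR, 9 higher on the adjusted P value alone, against 4.27% of all genes). RRP12, a factor of ribosomal subunit export, had 189, 226 and 195 CPM with niraparib, 77.9, 79.8 and 76.6 CPM with olaparib and 78.1 to 80.6 CPM with DMSO. Of 16 host genes of snoRNAs, 5 were called higher and 0 lower.

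Of 279 zinc finger genes tested on chromosome 19, many of them with near-identical copies, 53 were called higher with niraparib and 1 lower, with a median of 0.32 in WT and -0.04 in PARP1 KO. The interaction called 56 of the 280 it tested more positive in WT and 0 more negative, against 2.05% and 1.19% of all genes.

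MMP10, a matrix protease, had 102, 288 and 154 counts with niraparib, 6, 3 and 2 with olaparib and 0, 0 and 1 with DMSO in WT. EPGN, another ligand of the epidermal growth factor receptor, had 1.87, 2.94 and 2.47 CPM with niraparib and 0.389, 0.677 and 0.445 CPM with olaparib.

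Among 16 clock and PAR bZIP genes, 4 were called lower and 1 higher in WT. In PARP1 KO 3 were called lower and 0 higher, against 0.449% and 0.622% of all genes there. DBP, a clock output transcription factor, had 12.1, 11.9 and 11.2 CPM with niraparib and 33.3, 28.4 and 33.8 CPM with olaparib in WT. In PARP1 KO it had 12.3, 12.3 and 11.9 CPM against 31.7, 24.6 and 23 CPM. The interaction for DBP was -0.31 (adjusted P = 0.17, edgeR), which does not show that the genotypes were alike.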
